A study of Mus musculus with 90 samples.

Results

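The genes described here are 10 transcription factors of epithelial cells, Klf5, Grhl2, Foxa1, Foxa2, Gata3, Elf3, Ehf, Trp63, Zfp750 and Ovol1. They were taken by their Entrez gene numbers from a table of 20414 genes, and all 10 were found. The table holds the expression of each gene as FPKM (fragments mapped to a transcript, scaled by its length and by the library's mapped fragments) in 90 RNA-seq libraries. The libraries come from wild-type female mice, C57BL/6 and 10 weeks old per the labels, in 15 tissues: stomach, duodenum, uterus, ovary, aorta, vein, brown adipose tissue (BAT), white adipose tissue (WAT), heart, kidney, liver, skeletal muscle, spleen, cerebrum and hypothalamus. Each tissue has 3 estrus and 3 diestrus libraries, and the cycle phase was read from methylene blue staining of vaginal secretions. No agent or engineered allele was used in either group. The samples are whole tissue pieces, so that fewer cells of a type and less RNA per cell cannot be told apart. Per the study's methods the 15 tissues were taken from 3 mice in each phase, so libraries of different tissues share mice, and no source used here says whether a replicate number marks the same mouse in every tissue.

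An epithelium is a sheet of joined cells that lines a surface, and its identity is kept by a network of transcription factors. Grainyhead-like, Krueppel-like and ETS factors such as Grhl2, Klf5, Elf3 and Ehf keep junction and keratin genes active in most epithelia, whereas the forkhead factors Foxa1 and Foxa2 open chromatin in organs derived from the gut tube and in uterine glands. Trp63, Zfp750 and Ovol1 act in stratified (squamous) epithelium, in which basal cells divide and the layers above them differentiate. The stomach of the mouse has a squamous part, the forestomach, beside the glandular part, and the uterus lies between the ciliated oviduct and the squamous vagina.

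A few libraries stood apart by the markers of other epithelia, and they bear on several values below. Duodenum estrus 1 had a summed level of 70066 FPKM over 13 genes of gastric epithelium, against 17.6 to 54.8 FPKM in the other 5 duodenum libraries, and 1 of the 13 was at 0. Stomach estrus 1 and 3 had 16701 and 29848 FPKM over 27 genes of squamous epithelium, against 431 to 4130 FPKM in the other 4 stomach libraries. Ovary estrus 3 had 1921 FPKM over 10 genes of oviduct and ciliated epithelium, against 38.1 to 90.6 FPKM in the other 5, and uterus estrus 3 had 3595 FPKM over the same genes, against 110 to 270 FPKM. Aorta diestrus 3 had 2816 FPKM over 9 genes of airway epithelium, against at most 7.54 FPKM, and vein estrus 3 was high in T cell genes. In BAT estrus 3, 12048 genes were at 0, against 2404 to 4820 in the other 89 libraries. Stomach, duodenum and ovary carried their defining genes: gastric markers summed to at least 62779 FPKM in every stomach library, intestinal markers to at least 7097 FPKM in every duodenum library, and granulosa and luteal markers to at least 7781 FPKM in every ovary library. Stomach libraries also held 4885 to 54604 FPKM over 13 genes of pancreatic acini, against 14.7 to 117 FPKM in duodenum. The part of pancreatic tissue in the stomach values of the members was not tested. FPKM carry no read number, so the depth behind each value is unknown.

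Every factor but Gata3, which was highest in kidney, had its highest mean in stomach, duodenum or uterus. Not every factor was high in all of these tissues, as Trp63 averaged 0.01 FPKM in duodenum and Foxa1 0.105 FPKM in uterus. In the test of the log2(FPKM + 1) level against the mean of the 11 tissues other than stomach, duodenum, uterus and ovary (limma on all 90 libraries, where a gene was called if its adjusted p did not exceed 0.05 and its log2 difference reached 1), 9 of the 10 were higher in stomach, where 14% of all genes tested were called higher. Gata3 was the exception, with a log2 difference of 0.35 ± 0.18 (SE, adjusted p = 0.0685). In duodenum 7 of 10 were called higher (background 16.2%), in uterus 7 of 10 (background 20.2%) and in ovary 2 of 10, Elf3 and Ehf (background 23.2%). None was called lower in these 4 comparisons, beside 13.8%, 17.8%, 8.12% and 6.76% of all genes. With a pseudocount of 0.1 FPKM in place of 1, 1 member was called lower in duodenum, 1 in ovary and 5 higher in ovary. The share of all genes called was not counted with that pseudocount. Without ovary estrus 3 the count in ovary was 0, with log2 differences of 0.97 for Elf3 and 0.95 for Ehf.

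**Figure D1:**
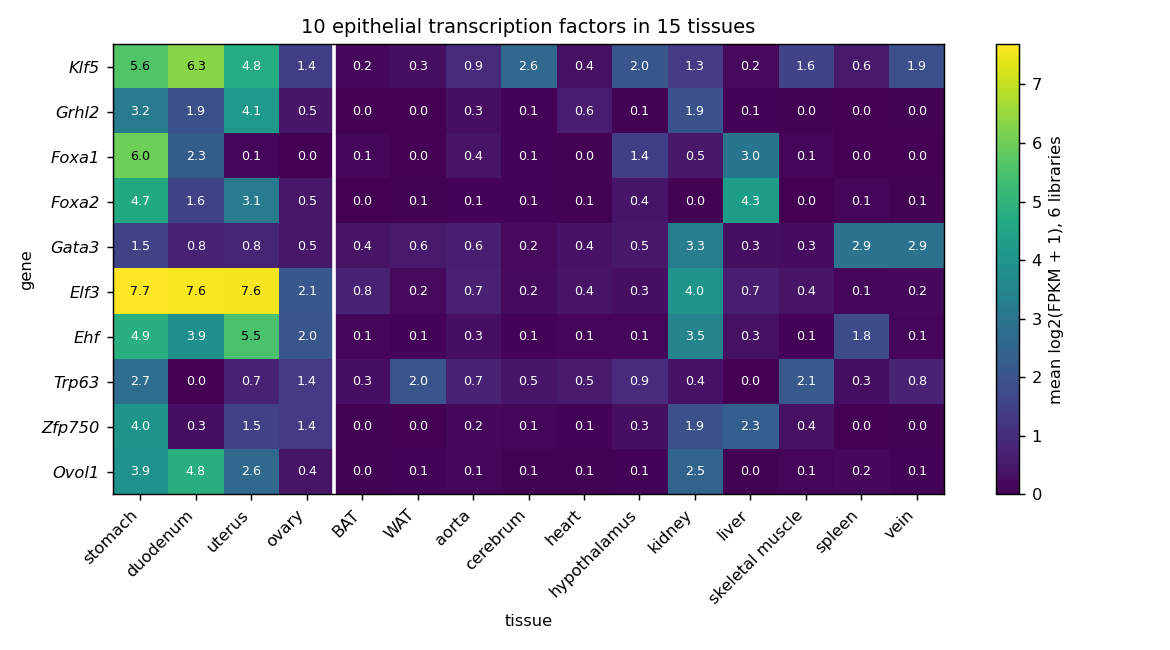
Mean log2(FPKM + 1) of each factor (rows) in each tissue (columns) over 6 libraries, with stomach, duodenum, uterus and ovary left of the white line; each cell prints its mean and the color scale starts at 0. Elf3 has the highest cells, in stomach, duodenum and uterus. Kidney, liver, spleen, vein, WAT, skeletal muscle, cerebrum and hypothalamus each hold at least 1 factor with a mean above 1 FPKM, in WAT Trp63 and in cerebrum Klf5. Klf5 and Elf3 in aorta and Elf3 in BAT also have means above 1 FPKM, through 1 library each, aorta diestrus 3 and BAT estrus 3.

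The differences between tissues made up most of the variation of the members. The share of the sum of squares of log2(FPKM + 1) that lay between tissues ranged from 85.6% to 97.8% in 9 members and was 61.8% in Trp63, beside a median of 91.6% over the 15226 genes that averaged 1 FPKM or more. The share between mice of the same tissue and phase was 27.9% in Trp63 and 1.78% in Ovol1. The share between phases was 0.425% in Ovol1 and 10.2% in Trp63. It is a raw share of the sum of squares, so differences between mice alone also add to it. The share between phases over all genes was not counted.

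Elf3 and Ehf are the ETS factors of the set, transcription factors with an ETS DNA-binding domain that are known mainly from epithelial cells. Elf3 (chromosome 1, 135253574 to 135258472, build GRCm38.p6) was the member with the highest levels on the per-length FPKM scale. Its values in uterus were 652, 198 and 256 FPKM in estrus and 233, 147 and 42.8 FPKM in diestrus. Its stomach values were 124, 221 and 182 FPKM in estrus and 262, 226 and 257 FPKM in diestrus. In duodenum its 6 libraries lay between 147 and 236 FPKM. Stomach, duodenum and uterus were the first 3 tissues when ranked by mean log2(FPKM + 1), and neighbours among them did not differ beyond their spread (both adjusted p = 1.00, exact permutation test, two-sided, 6 against 6 libraries, adjusted over the 140 neighbour pairs of all members). Uterus lay above kidney, the next tissue, which had 10.2 to 20.7 FPKM (adjusted p = 0.0233, exact permutation test). Ovary followed kidney with 3.41, 3.17 and 20.5 FPKM in estrus and 1.80, 1.17 and 1.46 FPKM in diestrus, and every other tissue had a mean of at most 1.44 FPKM.

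Ehf (chromosome 2, 103263431 to 103303275) was lower than Elf3 per length in the same tissues. It had 42.7, 31.6 and 110 FPKM in uterus in estrus and 33.1, 51.8 and 25.9 FPKM in diestrus. In stomach it had 35.8, 17.4 and 57.4 FPKM in estrus and 25.3, 27.98 and 21.7 FPKM in diestrus. In duodenum its estrus libraries had 33.1, 2.59 and 10.8 FPKM and its diestrus libraries 22.4, 15.2 and 16.2 FPKM, so that the estrus group covered the whole diestrus range. The order was uterus, stomach, duodenum, kidney (10.4 FPKM on average), ovary and spleen (2.50 FPKM), and only the step from spleen to liver exceeded the spread among the 14 steps (adjusted p = 0.0233, exact permutation test). In ovary it had 1.67, 3.01 and 22.8 FPKM in estrus and 1.47, 1.97 and 1.44 FPKM in diestrus. Ehf was higher in stomach than in duodenum by a log2 difference of 1.03 ± 0.30 (SE, adjusted p = 0.00271), a comparison in which 10.1% of genes were called higher. In the diestrus libraries alone this difference was 0.47 and was not called.

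Klf5 is a Krueppel-like zinc finger factor of dividing epithelial cells, for example of the intestinal crypts. It lies on chromosome 14, 99298691 to 99313412. In duodenum, its highest tissue, it had 55.2, 61.1 and 76.3 FPKM in estrus and 105, 82.3 and 104 FPKM in diestrus. Stomach libraries held 51.1, 39.2 and 69.3 FPKM in estrus and 44.5, 47.6 and 41.0 FPKM in diestrus. In uterus it had 22.6, 25.4 and 36.6 FPKM in estrus and 21.2, 32.8 and 21.5 FPKM in diestrus. It reached a mean of 1 FPKM in 10 tissues, more than any other member, and cerebrum followed uterus with 3.54 to 6.63 FPKM. The steps from stomach to uterus and from uterus to cerebrum exceeded the spread (both adjusted p = 0.0233, exact permutation test), as did the step from cerebrum to hypothalamus (adjusted p = 0.0379, exact permutation test), and the step from duodenum to stomach did not (adjusted p = 0.0673, exact permutation test). In ovary it had 1.44, 1.28 and 7.36 FPKM in estrus and 1.05, 0.58 and 1.43 FPKM in diestrus.

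Grhl2 is a grainyhead-like factor that maintains genes of cell junctions. It lies on chromosome 15, 37232821 to 37363569. It was highest in uterus, with 16.9, 15.7 and 18.9 FPKM in estrus and 18.8, 22.7 and 9.41 FPKM in diestrus. Stomach libraries held 7.61, 6.85 and 10.1 FPKM in estrus and 8.07, 8.23 and 8.46 FPKM in diestrus. Uterus lay above stomach and stomach above kidney beyond their spread (adjusted p = 0.0379 and 0.0233, exact permutation test). Kidney had 2.51 to 3.62 FPKM and duodenum 1.12 to 3.94 FPKM, and these neighbours did not differ beyond their spread (adjusted p = 1.00, exact permutation test). Grhl2 was lower in duodenum than in stomach by 1.29 ± 0.17 on the log2 scale (SE, adjusted p = 8.39e-10). In ovary it was 3.59 FPKM in estrus 3 and at most 0.22 FPKM in the other 5 libraries.

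Foxa1 and Foxa2 are forkhead factors that can bind their sites in closed chromatin and act in stomach, intestine and liver, and Foxa2 is also required for uterine glands. Foxa1 (chromosome 12, 57540628 to 57548029) had 49.5, 65.6 and 44.7 FPKM in stomach in estrus and 73.6, 84.0 and 70.1 FPKM in diestrus. Liver, the next tissue, had 5.59 to 9.80 FPKM, and stomach exceeded it beyond the spread (adjusted p = 0.0233, exact permutation test). In duodenum Foxa1 had 20.5, 0.96 and 2.69 FPKM in estrus and 3.17, 3.59 and 3.25 FPKM in diestrus, so that 1 of the 6 libraries carried most of the mean. In uterus it was at most 0.55 FPKM, and its difference between stomach and uterus, 5.88 ± 0.27 on the log2 scale (SE, adjusted p = 7.51e-29), was the widest of the 10 members in that comparison, in which 8.12% of genes were called higher.

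Foxa2 (chromosome 2, 148042877 to 148046969) was present in uterus, where Foxa1 was near 0. Its stomach values were 20.3, 30.4 and 19.8 FPKM in estrus and 23.6, 26.0 and 28.5 FPKM in diestrus, and its liver values lay between 14.2 and 32.3 FPKM. In uterus it had 1.82, 12.0 and 17.7 FPKM in estrus and 6.61, 5.67 and 12.4 FPKM in diestrus, a range in estrus that enclosed all 3 diestrus values. In duodenum it had 7.24, 0.52 and 1.47 FPKM in estrus and 2.06, 2.00 and 1.49 FPKM in diestrus. None of its 14 neighbour steps exceeded the spread (the steps from stomach to liver and from liver to uterus had adjusted p = 0.407 and 0.132, exact permutation test). Foxa2 was higher in uterus than in ovary by 2.65 ± 0.26 on the log2 scale (SE, adjusted p = 1.04e-13), a comparison in which 8.40% of genes were called higher and in which Elf3, Ehf, Grhl2, Klf5 and Ovol1 were called higher too.

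The DNA before the start sites of the 2 forkhead genes is shown because their levels followed each other over the 90 libraries (Pearson r of log2(FPKM + 1) = 0.79) but parted in uterus. The sequences come from RefSeq (build GRCm38.p6), both on the minus strand and written 5′ to 3′, and bases inside an annotated exon are left out. Capitals mark a match to the forkhead motif TGTTTAC or its reverse complement. Foxa1, chr12:57546122-57546361, lies inside the Foxa1 gene, in an intron of its longer transcripts, and Foxa2, chr2:148046970-148047219, lies outside every annotated gene, next to the outermost of 3 start sites.
Foxa1: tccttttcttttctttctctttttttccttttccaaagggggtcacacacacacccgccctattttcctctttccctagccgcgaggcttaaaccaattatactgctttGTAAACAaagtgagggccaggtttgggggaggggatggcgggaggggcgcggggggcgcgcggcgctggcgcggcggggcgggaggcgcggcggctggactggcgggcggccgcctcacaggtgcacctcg
Foxa2: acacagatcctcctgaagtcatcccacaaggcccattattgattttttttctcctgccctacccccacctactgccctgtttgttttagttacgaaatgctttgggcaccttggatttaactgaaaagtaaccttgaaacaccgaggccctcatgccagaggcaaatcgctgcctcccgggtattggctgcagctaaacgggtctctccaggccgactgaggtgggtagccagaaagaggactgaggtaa
The Foxa1 window holds 1 forkhead match, 141 bases before the start, and 3.17% of 32851 mouse windows of 250 bases hold one. The Foxa2 window shown holds no match to the forkhead motif. Searches on both strands for the letters AGATAA of GATA factors, which 9.99% of windows hold, for the letters AGGAAG of ETS factors (29.5%), for the letters CCACCC of Krueppel-like factors (28.1%) and for the grainyhead letters AACCNGTT (1.79%) found none in the Foxa2 window shown, which says only that these letters are not there. The windows before the other 2 start sites of Foxa2 hold 1 ETS and 2 Krueppel-like matches and 1 GATA and 2 Krueppel-like matches, and no forkhead match.

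Trp63, Zfp750 and Ovol1 are the factors of stratified epithelium. Trp63 (chromosome 16, 25683763 to 25892088) encodes the p63 protein of basal cells. In stomach it had 28.6, 0.64 and 60.9 FPKM in estrus and 9.46, 1.86 and 0 FPKM in diestrus, so that single libraries of each phase were high and low. Skeletal muscle (2.74 to 4.74 FPKM), WAT (2.18 to 5.12 FPKM) and ovary (1.01 to 2.05 FPKM) were more even, and WAT lay above ovary beyond the spread (adjusted p = 0.0233, exact permutation test). In duodenum and liver Trp63 was at most 0.02 and 0.03 FPKM. Against the other 11 tissues it was called higher in stomach at 1.96 ± 0.27 on the log2 scale (SE, adjusted p = 2.06e-09), and this difference was 0.40 and not called without the 8 libraries whose markers or number of genes at 0 stood apart, of which 2 are stomach libraries.

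Zfp750 is a zinc finger factor that acts downstream of p63 in the differentiation of epidermal cells. It lies on chromosome 11, 121510976 to 121519342. In stomach it had 22.8, 7.38 and 45.5 FPKM in estrus and 12.8, 9.88 and 9.72 FPKM in diestrus, above liver with 2.52 to 5.95 FPKM (adjusted p = 0.0233, exact permutation test). Kidney had 2.11 to 3.40 FPKM. In ovary it had 1.75, 1.52 and 1.62 FPKM in estrus and 2.03, 1.46 and 1.26 FPKM in diestrus, an even level in a tissue where Ovol1 was at most 0.46 FPKM. In uterus it had 2.65, 1.17 and 19.0 FPKM in estrus and 0.52, 0.71 and 0.24 FPKM in diestrus. Its call against the other 11 tissues in uterus (log2 difference 1.01 ± 0.19, SE, adjusted p = 1.86e-06) ended without uterus estrus 3, where the difference was 0.54.

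Ovol1 is a zinc finger repressor that restrains the division of differentiating epithelial cells. It lies on chromosome 19, 5549137 to 5560575. In duodenum, its first tissue, it had 26.5, 40.6 and 29.1 FPKM in estrus and 21.2, 27.97 and 22.5 FPKM in diestrus. Stomach libraries held 16.4, 8.84 and 37.5 FPKM in estrus and 12.3, 11.4 and 10.0 FPKM in diestrus. In uterus it had 4.11, 4.44 and 9.59 FPKM in estrus and 4.44, 8.0 and 3.0 FPKM in diestrus, and kidney had 4.17 to 6.46 FPKM. The steps from stomach to uterus, from kidney to ovary and from ovary to spleen exceeded the spread (adjusted p = 0.0379, 0.0233 and 0.0233, exact permutation test). Ovol1 was thus present in the glandular duodenum, where Trp63 was at most 0.02 FPKM and Zfp750 at most 0.07 FPKM in 5 of 6 libraries.

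Gata3 is a zinc finger factor of T cells, of the collecting system of the kidney and of several glandular epithelia, and it lies on chromosome 2, 9857078 to 9887953. It was highest in kidney, spleen and vein. Kidney had 6.31 to 11.6 FPKM, spleen 6.28 to 7.33 FPKM and vein 4.08 to 8.50 FPKM, and these neighbours did not differ beyond their spread (adjusted p = 0.124 and 1.00, exact permutation test). In stomach it had 3.99, 0.32 and 9.57 FPKM in estrus and 1.46, 0.72 and 0.56 FPKM in diestrus. In uterus, duodenum and ovary its mean was under 1 FPKM. T cell genes summed to 773 to 1082 FPKM in spleen and to 270 FPKM in vein estrus 3, a library in which Gata3 was 4.68 FPKM, against 4.08 to 8.50 FPKM in the other vein libraries.

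The members fell into groups by their profile over the 90 libraries, which share tissues and single libraries, so the correlations are descriptions. Ehf with Grhl2 (r = 0.93), Ovol1 with Elf3 (r = 0.93), Ehf with Elf3 (r = 0.92) and Elf3 with Grhl2 (r = 0.92) were the most alike, and Gata3 was the least alike to the others. The genes most like Elf3 outside the set were Rab25, Esrp1 and Mapk13 (r = 0.97, 0.97 and 0.96), of which Rab25 is a vesicle GTPase and Esrp1 a splicing regulator, both of epithelial cells. The genes most like Grhl2 were Fermt1, Lrrc31 and Bspry (r = 0.95, 0.93 and 0.93), and those most like Ehf were Bspry, Ap1m2 and Cdcp1 (r = 0.96, 0.96 and 0.95). For Klf5 they were Gpx2, Oit1 and Tmem54 (r = 0.92, 0.91 and 0.91), and for Ovol1 Misp, Ano9 and Sectm1b (r = 0.98, 0.97 and 0.96). For Foxa1 they were Foxa3, Ern2 and Capn8 (r = 0.91, 0.88 and 0.86), and for Foxa2 Cfi, Apol9b and Krt18 (r = 0.91, 0.87 and 0.86). For Trp63 they were Ephx3, Cyp4f39 and Capns2 (r = 0.79, 0.77 and 0.75), for Zfp750 Fam25c, Sdr9c7 and Cysrt1 (r = 0.88, 0.82 and 0.80), and for Gata3 Insrr, Sostdc1 and Rab38 (r = 0.81, 0.80 and 0.75). By Spearman's rho 2 of these 30 genes remained among the 3 most alike.

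**Figure D2:**
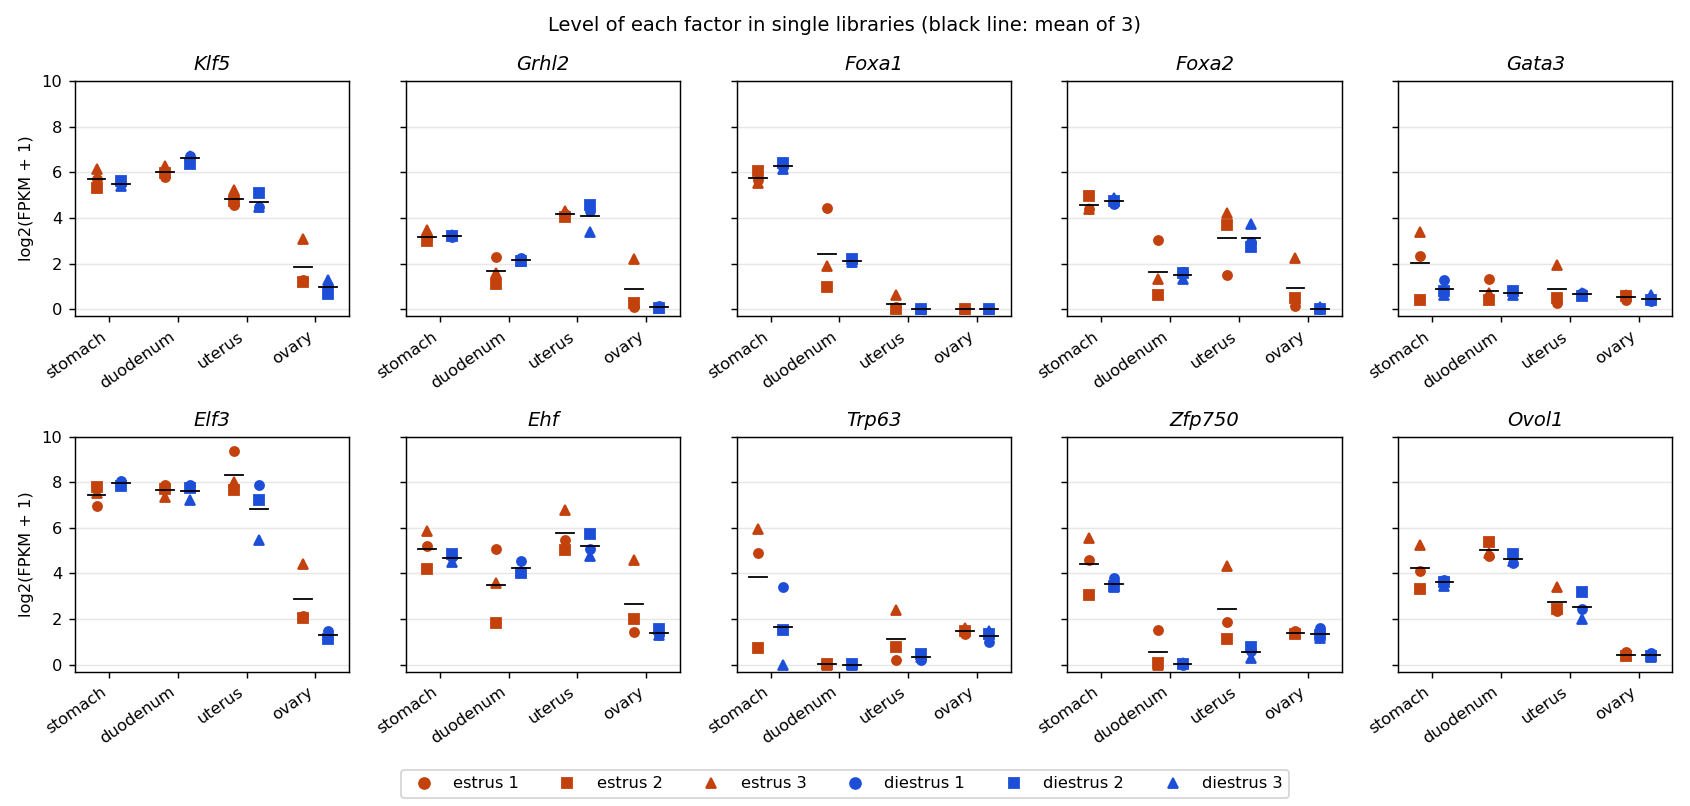
log2(FPKM + 1) of each factor in every estrus (orange) and diestrus (blue) library of stomach, duodenum, uterus and ovary; marker shapes give the replicate number and black lines the mean of 3. In stomach Trp63 spans 0 to 60.9 FPKM, and in ovary estrus 3 stands above the other 5 libraries for Klf5, Grhl2, Foxa2, Elf3 and Ehf.

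The comparison of estrus with diestrus in each tissue asked whether the cycle shifts the factors. Of the 150 pairs of member and tissue, 52 reached a mean of 1 FPKM and were tested, and none was called, beside 0.00108% of all pairs of gene and tissue (limma on log2(FPKM + 1), one fit per tissue). Of the 52 differences 31 were positive and 21 negative (46.5% of all pairs were positive), with a median of 0.03 and a range from -1.02 to 2.22 on the log2 scale. A difference of at least 1 in either direction was found in 7 of the 52 (2.56% of all pairs), and no adjusted p was under 0.308. Some of the 7 reached the filter of 1 FPKM only through the library or phase where they were high. Elf3 in aorta and Zfp750 in uterus are among them, so the 7 are not read as an excess over all pairs. An unadjusted p under 0.05 was found in 5, Klf5 in duodenum and in hypothalamus, Foxa1 in stomach, Elf3 in ovary and Trp63 in WAT, beside 7.84% of all pairs. The phases were fully separated in 7 pairs (15% of all pairs), 2 with higher values in estrus (5.66%) and 5 with lower values (9.31%). One fit of all 90 libraries, with a shared estimate of the spread, tested all 150 pairs. In it 4 were called, Trp63 and Gata3 in stomach and Zfp750 and Elf3 in uterus, beside 1.14% of all pairs of gene and tissue.

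**Figure D3:**
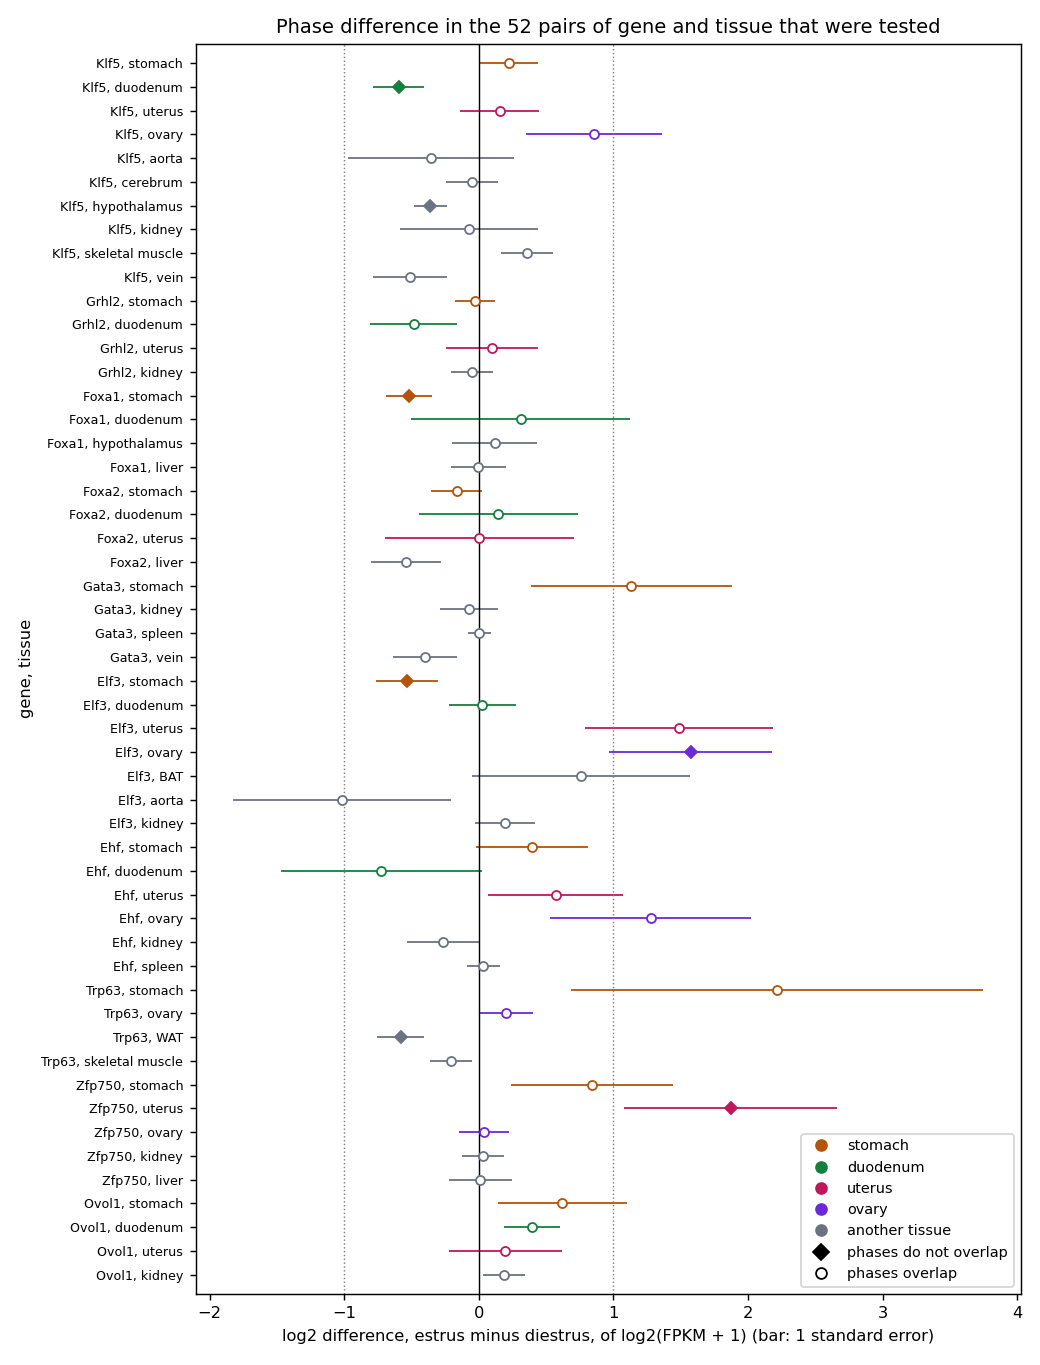
Estrus minus diestrus difference of log2(FPKM + 1), with 1 standard error, in the 52 pairs of factor and tissue that were tested; colors give the tissue, filled diamonds mark the 7 pairs without overlap of the phases and dotted lines the limits of -1 and 1. The bars of Trp63 in stomach and of Zfp750 and Elf3 in uterus are among the widest, and no pair was called.

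In stomach, the factors of stratified epithelium were high in 2 of the 3 estrus libraries and low in the third. The difference of Trp63 was 2.22 ± 1.53 (SE, adjusted p = 0.700) and that of Gata3 1.13 ± 0.75 (SE, adjusted p = 0.700), and neither passed the test. Both were called in the fit of 90 libraries (adjusted p = 0.00756 and 0.0491, background 1.66%), and neither was called there without stomach estrus 1 or without stomach estrus 3. Without the 8 libraries that stood apart, estrus 2 was the only stomach estrus library left. The differences from that single library were -0.92 for Trp63 and -0.51 for Gata3, and they are no test of a phase difference. When the 6 libraries were ranked by the summed level of 27 squamous markers (431 FPKM in diestrus 3, 641 in estrus 2, 1876 in diestrus 2, 4130 in diestrus 1, 16701 in estrus 1 and 29848 in estrus 3), Trp63 had the same order, and Zfp750, Ovol1 and Gata3 differed from it only in the 2 lowest libraries. None of the 27 squamous markers was called, and the 26 tested had positive differences with a median above 2, beside -0.02 over all genes tested in stomach. Krtdap, a marker of differentiated keratinocytes, had 4900, 108 and 11170 FPKM in estrus and 1395, 493 and 0.41 FPKM in diestrus. Mesothelial and smooth muscle markers were also highest in stomach estrus 1, 6 of 6 and 7 of 7 genes. The part that the amount of squamous tissue plays in the phase differences of the members was not tested.

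Foxa1 and Elf3 had differences of the opposite sign in stomach. All 3 estrus values of Foxa1 lay below all 3 diestrus values, with a difference of -0.52 ± 0.17 (SE, adjusted p = 0.671), and the same held for Elf3 at -0.53 ± 0.23 (SE, adjusted p = 0.676). Neither passed the test, and 12% of all genes tested in stomach were lower in estrus without overlap. The lowest Foxa1 value was in estrus 3 and the lowest Elf3 value in estrus 1, the 2 libraries with the highest squamous sums. Without the libraries that stood apart, where estrus 2 was the only stomach estrus library left, the differences were -0.20 for Foxa1 and -0.17 for Elf3. The 12 gastric markers tested all had negative differences, with a median of -0.45, and Pgc, the pepsinogen C gene, had 50021, 115889 and 15914 FPKM in estrus and 51017, 50110 and 44337 FPKM in diestrus. The other stomach members, Klf5, Grhl2, Foxa2, Ehf, Zfp750 and Ovol1, had overlapping phases and differences between -0.17 and 0.84.

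**Figure D4:**
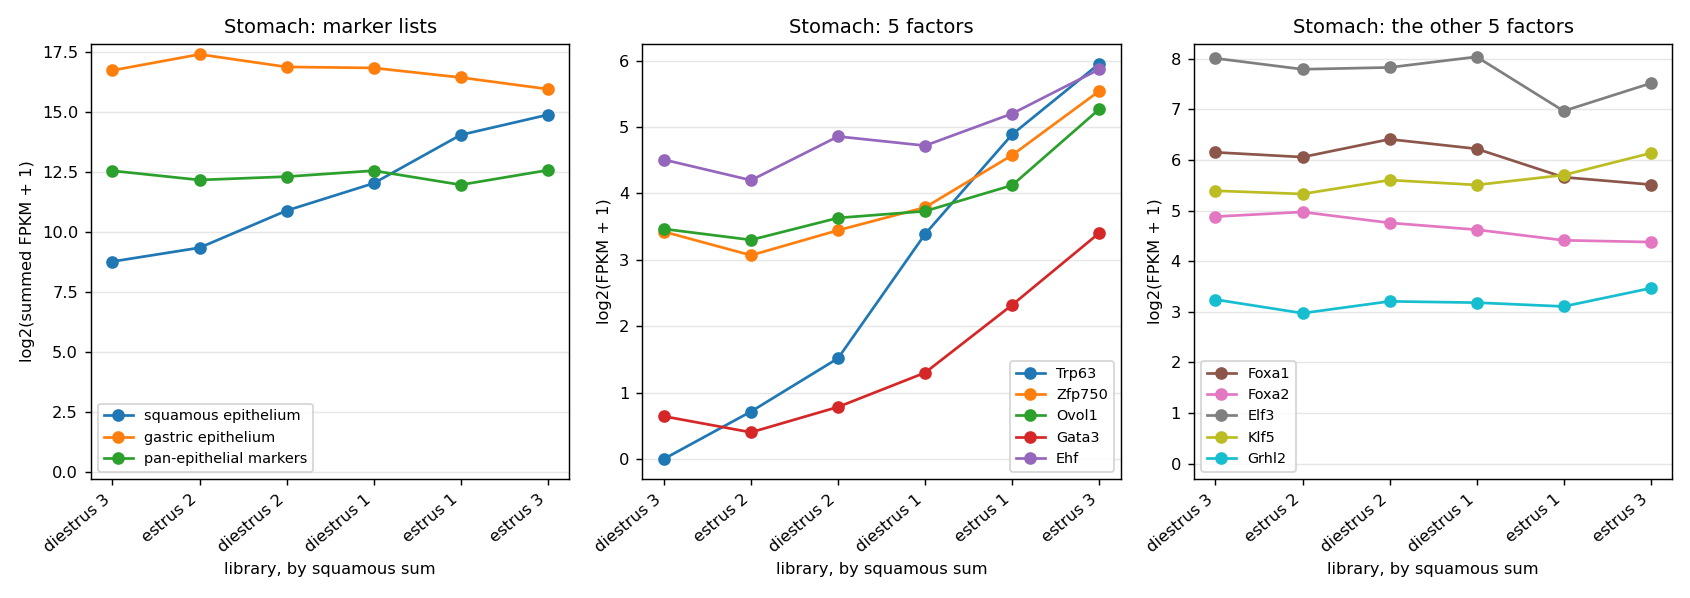
The 6 stomach libraries, ranked by the summed FPKM of 27 squamous genes: summed marker lists (left), Trp63, Zfp750, Ovol1, Gata3 and Ehf (middle), Foxa1, Foxa2, Elf3, Klf5 and Grhl2 (right), all as log2 of FPKM + 1. From diestrus 3 to estrus 3 Trp63 goes from 0 to 60.9 FPKM, while the pan-epithelial sum stays between 3955 and 6027 FPKM.

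In duodenum, Klf5 was lower in every estrus library than in any diestrus library, with a difference of -0.60 ± 0.19 (SE, adjusted p = 0.368). It did not pass the test, and 22.1% of all genes tested in duodenum were lower in estrus without overlap. Proliferation genes, 10 of 10, had negative differences too, with a median of -1.31 beside -0.16 over all genes, and none was called. Without duodenum estrus 1 the Klf5 difference was -0.50. That library was the highest of 6 in 7 of the 10 members: Foxa1 was 20.5 FPKM against 0.96 to 3.59 FPKM in the other 5, Foxa2 7.24 against 0.52 to 2.06 FPKM, Zfp750 1.89 against at most 0.07 FPKM, and Gata3 was 2.03 times the highest of the other 5. Grhl2, Elf3 and Ehf were the other 3, at 1.01 to 1.48 times the highest of the other 5 libraries. The gastric markers Tff1, Tff2 and Gkn2 were at 29618, 16401 and 15012 FPKM there and at most 20.7, 8.62 and 2.96 FPKM in the other 5, and 12 of 15 intestinal markers were lowest there. Trp63 was at most 0.02 FPKM in all 6. Ehf had a difference of -0.72 ± 0.75 in duodenum (SE, adjusted p = 0.643), with overlapping phases. Without the 8 libraries that stood apart the 2 remaining estrus values of Ehf, 2.59 and 10.8 FPKM, lay below the diestrus values of 15.2 to 22.4 FPKM. In one limma fit of the remaining libraries Ehf was called (-1.52, adjusted p = 2.97e-06). The 8 libraries were chosen after seeing the data, and duodenum estrus 1, which is among them, held the highest Ehf value, 33.1 FPKM. That call is therefore no test of a phase difference. The part of gastric tissue in the duodenum values of the members was not tested. The call of Foxa2 above the other 11 tissues in duodenum (1.10 ± 0.19, SE, adjusted p = 5.85e-07) ended without this library, where the difference was 0.76, whereas Foxa1 stayed called.

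In uterus, all 7 members tested had positive differences, beside 42.7% of all genes, and none was called. Zfp750 was higher in every estrus library than in any diestrus library, with a difference of 1.87 ± 0.79 (SE, adjusted p = 0.897), and 3.25% of all genes tested in uterus were so. Its diestrus mean was 0.49 FPKM, so Zfp750 reached the filter of 1 FPKM through the estrus libraries. The separation of its phases is therefore no support for a phase difference. Elf3 had a difference of 1.49 ± 0.70 (SE, adjusted p = 0.897), and its phases overlapped, since diestrus 1 exceeded estrus 2. In the fit of 90 libraries both were called (adjusted p = 0.000146 for Zfp750 and 0.0303 for Elf3, background 4.73%), and neither was called there without uterus estrus 3 (0.93 for Zfp750 and 1.65 for Elf3, adjusted p = 0.0671 for both). The other 5 differences, of Klf5, Grhl2, Foxa2, Ehf and Ovol1, lay between 0.00 and 0.57.

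Uterus estrus 3 was the highest of 6 in 8 of the 10 members. Zfp750 was 19.0 FPKM there against 0.24 to 2.65 FPKM in the other 5, Trp63 4.31 against 0.16 to 0.72 FPKM, Gata3 2.85 against 0.22 to 0.65 FPKM and Ehf 110 against 25.9 to 51.8 FPKM. Foxa1, Foxa2, Klf5 and Ovol1 were also highest there, and Elf3 and Grhl2 were not. In the same library 26 of 27 squamous markers were the highest of 6, with a sum of 5658 FPKM against 46.9 to 291 FPKM and 1 marker at 0 against 4 to 9, and all 10 oviduct and ciliated markers were highest. Ovgp1, the oviduct-specific glycoprotein, was 2554 FPKM there against 22.3 to 126 FPKM, and Krt5, the basal keratin, 568 against 0.06 to 26.2 FPKM. Without uterus estrus 3 and the other 7 libraries that stood apart, the difference of Zfp750 was 0.93 and that of Elf3 1.65. In one limma fit of the remaining libraries Elf3 was called (adjusted p = 0.000152) and Zfp750, at an adjusted p of 1.88e-05, did not reach the limit of 1. Because the libraries left out were chosen after seeing the data, that fit is no test of a phase difference. The part of oviduct or vaginal tissue in these values was not tested.

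Of 13 genes of uterine epithelium, 8 had positive and 5 negative differences in uterus, with a median of 0.35 beside -0.07 over all genes, and none was called. Sprr2f, Lcn2 and Wfdc2 had the highest means. Sprr2f and Lcn2, estrogen-responsive genes of the uterine lining, had 8454, 1109 and 5522 FPKM and 3989, 177 and 1245 FPKM in estrus, and 2199, 841 and 77.9 FPKM and 195, 56.2 and 10.2 FPKM in diestrus. Elf3, Sprr2f and Lcn2 were each highest in estrus 1 and lowest in diestrus 3. Their differences, 2.82 ± 1.28 for Sprr2f and 4.26 ± 1.36 for Lcn2 (SE, both adjusted p = 0.897), did not pass the test. Wfdc2 had 1059, 1036 and 322 FPKM in estrus and 1105, 1430 and 503 FPKM in diestrus, a difference of -0.39 ± 0.57 (SE, adjusted p = 0.913).

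In ovary, the 5 members tested had positive differences, beside 53.5% of all genes, and none was called. Elf3 was higher in every estrus library than in any diestrus library, with a difference of 1.58 ± 0.60 (SE, adjusted p = 0.828), and 8.13% of all genes tested in ovary were so. Ehf had a difference of 1.28 ± 0.75 (SE, adjusted p = 0.846), with overlapping phases. Estrus 3 was the highest of 6 in 6 of the 10 members: Grhl2 was 3.59 FPKM there against 0.03 to 0.22 FPKM in the other 5, Foxa2 3.70 against at most 0.41 FPKM, Ehf 22.8 against 1.44 to 3.01 FPKM, Elf3 20.5 against 1.17 to 3.41 FPKM, Klf5 7.36 against 0.58 to 1.44 FPKM and Trp63 2.05 against 1.01 to 1.83 FPKM. Foxa1 was at 0 there, and Zfp750, Ovol1 and Gata3 were within the range of the other 5. All 10 oviduct and ciliated markers, 22 of 23 pan-epithelial markers and 6 of 6 mesothelial markers were highest in the same library, and Ovgp1 was 1563 FPKM there against 2.35 to 39.7 FPKM. Without it the differences were 0.80 for Elf3 and 0.32 for Ehf. The estrus values of Elf3 in the 2 remaining libraries, 3.41 and 3.17 FPKM, still lay above the diestrus values of 1.17 to 1.80 FPKM. The part of oviduct tissue was not tested.

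**Figure D5:**
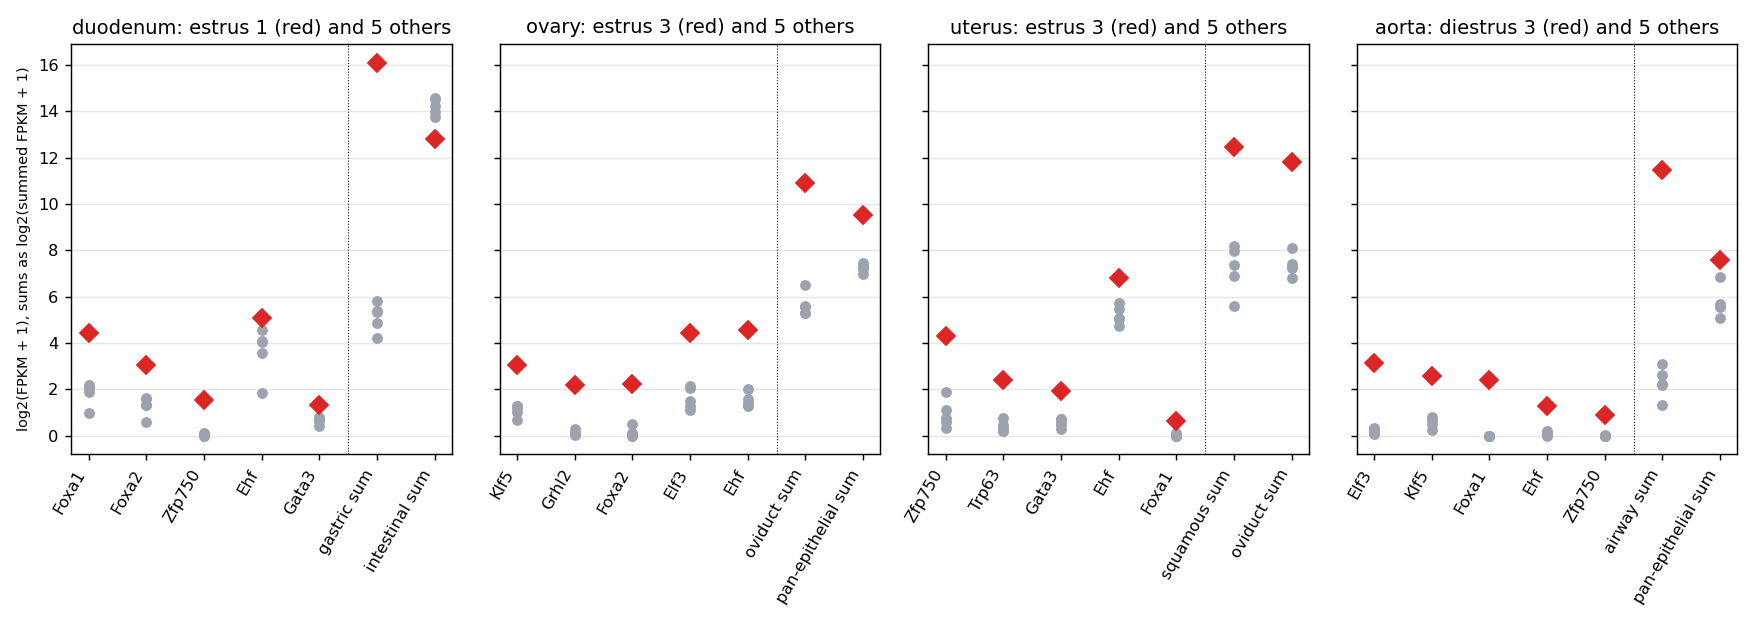
Values of 5 factors and 2 summed marker lists in duodenum, ovary, uterus and aorta, as log2 of FPKM + 1, with 1 library of each tissue in red and the other 5 in gray. The red library lies above the other 5 for each factor shown and for the gastric, oviduct, squamous and airway sums, and below them for the intestinal sum in duodenum.

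Outside these 4 tissues 23 pairs were tested, 9 with positive and 14 with negative differences, and none was called. Klf5 in hypothalamus had 2.54, 2.23 and 3.26 FPKM in estrus and 3.38, 3.41 and 4.33 FPKM in diestrus, without overlap, a difference of -0.36 ± 0.13 (SE, adjusted p = 0.308) in a tissue where 9.64% of genes were lower in estrus without overlap. Trp63 in WAT had 2.18, 2.42 and 2.2 FPKM in estrus and 5.12, 3.39 and 3.34 FPKM in diestrus, also without overlap, a difference of -0.58 ± 0.17 (SE, adjusted p = 0.791) where 2.74% of genes were so. The squamous sum in WAT was 6.24 to 9.85 FPKM in estrus and 6.04 to 8.94 FPKM in diestrus. Elf3 in aorta had a difference of -1.02 ± 0.81 (SE, adjusted p = 0.933) that came from 1 library: diestrus 3 had 7.87 FPKM and the other 5 had 0.04 to 0.27 FPKM. All 10 members were highest in that aorta library, among them Foxa1 at 4.25 FPKM against 0 in the other 5 and Klf5 at 4.91 against 0.20 to 0.74 FPKM. In the same library 7 of 9 airway markers, 21 of 23 pan-epithelial markers and 12 of 12 T cell markers were highest, with Scgb1a1, the club cell secretoglobin, at 1047 FPKM against at most 3.16 FPKM. The part of airway tissue in these values was not tested. Elf3 in BAT was 6.95 FPKM in estrus 3 and 0.09 to 0.50 FPKM in the other 5. Of the 1869 genes within 10% of the length of its transcript, 709 were above 0 in that library, the lowest at 2.02 FPKM, and 10% of those were at or below 6.64 FPKM.

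The test of the phase difference itself between tissues was run for stomach against duodenum, uterus against ovary and stomach against uterus. In uterus against ovary Zfp750 was the 1 member called, with a difference of 1.84 ± 0.50 (SE, adjusted p = 0.0293), beside 1.81% of all genes tested. Its difference was 1.87 in uterus and 0.04 in ovary. Without uterus estrus 3 the value was 0.89 (adjusted p = 0.438), and with a pseudocount of 0.1 FPKM it was 2.81 (adjusted p = 0.133), and neither was called. The call also ended without ovary estrus 3 (1.83, adjusted p = 0.0579) and without any 1 of the 3 diestrus replicates of every tissue (adjusted p = 0.174 to 0.277). No member was called in stomach against duodenum (background 3.34%) or in stomach against uterus (background 3.56%), and the lowest adjusted p there were those of Trp63 in the first (2.21 ± 0.73, SE, adjusted p = 0.0581) and of Elf3 in the second (-2.02 ± 0.67, SE, adjusted p = 0.0656).

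A list of 40 other epithelial transcription factors, taken from textbook roles, was read in the same way. Over the 15 tissues none was called between phases in the fits per tissue. In one fit of all 90 libraries 16 of 525 pairs were called, 9 higher and 7 lower in estrus, beside 1.14% of all pairs of gene and tissue, and 5 of the 16 were in stomach, 4 in uterus, 3 in duodenum, 2 in ovary and 2 in BAT. In uterus 22 of the 27 tested per tissue had positive differences and 5 negative, with a median of 0.62 beside -0.07 over all genes. Of the 40 factors, 25 were the highest of 6 in uterus estrus 3 and 21 in ovary estrus 3, and the part of these libraries in the counts was not tested. Sox17 and Gata2, the 2 with the highest means there, had negative differences of -1.09 ± 0.57 and -1.37 ± 0.50 (SE, both adjusted p = 0.897). In stomach 15 were positive and 15 negative, and Spdef, a factor of mucous cells, had 41.2, 64.4 and 16.7 FPKM in estrus and 82.9, 235 and 187 FPKM in diestrus, a difference of -2.08 ± 0.59 (SE, adjusted p = 0.671). Klf4 and Creb3l1 were the others with high means in stomach, at 0.23 ± 0.25 and -1.06 ± 0.37 (SE, adjusted p = 0.748 and 0.671). In duodenum 13 of 30 were positive, and Klf4, a factor of differentiated intestinal cells, had 252, 165 and 132 FPKM in estrus and 54.0, 111 and 67.5 FPKM in diestrus, the highest value being that of estrus 1 (1.24 ± 0.34, SE, adjusted p = 0.368). Hnf4a and Esrra, the other 2 of the highest there, had -0.74 ± 0.30 and 0.22 ± 0.26 (SE, adjusted p = 0.368 and 0.692). In ovary 14 of 18 were positive, and the 3 highest, Gata4, Creb3l1 and Klf6, had differences of -0.31 ± 0.13, 0.00 ± 0.24 and 0.17 ± 0.18 (SE, adjusted p = 0.828, 0.999 and 0.911).

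Pan-epithelial markers, with junction and keratin genes among them, were counted in the same way. Of 23 pan-epithelial markers, 18 of 23 tested had positive differences in uterus, 20 of 21 in ovary, 7 of 22 in stomach and 6 of 22 in duodenum, and none was called. Their medians were 0.36, 0.91, -0.18 and -0.27, beside -0.07, 0.01, -0.02 and -0.16 over all genes. Of all genes tested, 42.7% had positive differences in uterus and 53.5% in ovary. Ovary estrus 3 was the highest of 6 in 22 of the 23 markers, with a sum of 739 FPKM against 125 to 174 FPKM. The part of ovary estrus 3 in the ovary count was not tested. Krt19, a keratin of simple epithelia, had 455, 659 and 689 FPKM in uterus in estrus and 887, 923 and 121 FPKM in diestrus. Of 7 mesenchymal repressors of epithelial genes, Zeb1, Zeb2, Snai1, Snai2, Twist1, Twist2 and Prrx1, 6 of the 7 tested in uterus had negative differences with a median of -0.51, and Snai1 had 2.39, 11.4 and 3.04 FPKM in estrus and 18.6, 13.4 and 43.4 FPKM in diestrus (-2.07 ± 0.61, SE, adjusted p = 0.897). In uterus estrus 3, 4 of the 7 repressors and 8 of 8 fibroblast genes were the lowest of 6, and the part of that library was not tested.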

How the data were processed

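The authors sequenced RNA libraries on a BGISEQ-500. The submitters' processing notes name Bowtie2 2.2.5, RSEM 1.2.8 and the build GRCm38.p5, and the deposited values are FPKM per gene and library, with no counts. The study's own test of counts was therefore not repeated. Gene symbols and positions were taken from RefSeq (GRCm38.p6) for 20265 of 20414 genes. Values were transformed to log2(FPKM + 1), so that fold changes of weakly expressed genes come out too small. Genes averaging 1 FPKM or more in the samples of a fit were tested with limma (trend, version 3.58.1), with Benjamini-Hochberg adjustment over all genes tested. Estrus minus diestrus was fitted on the 6 libraries of each tissue, and tissues were compared in one fit of 90 libraries. Neighbours in the order of tissues, ranked by mean log2(FPKM + 1), were compared by exact permutation tests, whose smallest p is 0.00216. All 10 members were named, with the phase difference, SE and adjusted p where phases did not overlap or the difference reached 1. Of other lists, genes were named from the 3 with the highest mean in the tissue. Per the methods, 3 mice of each phase gave all tissues, and fits across tissues treat libraries as independent. No source says that a replicate number marks a mouse. The correlation of deviations was over 0.1 for every number in 0 of 15 tissues between phases and in 1 of 6 pairs of tissues within a phase, stomach with uterus in estrus (0.16, 0.19 and 0.25), so numbers were not used as pairs. The members and lists were chosen with earlier results of these data known. The scripts were tested on simulated data. Alternatives are given in the closing section.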

Additional observations from a re-analysis of the deposited data

Results flagged for a closer look

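The phase difference of Zfp750, 1.84 greater in uterus than in ovary on the log2 scale, passed the test of the difference itself and is listed because 2 tissues differed under the same contrast. Zfp750 was 19.0 FPKM in uterus estrus 3, and the difference was 0.89 without that library (adjusted p = 0.438).

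Elf3 had all 3 estrus values above all 3 diestrus values in ovary (log2 difference 1.58) and all 3 below in stomach (-0.53), so the phases were ordered in opposite ways in the 2 tissues. This difference between ovary and stomach was not tested. Ovary estrus 3 held the highest Elf3 value of that tissue, 20.5 FPKM, beside an oviduct marker sum of 1921 FPKM, and stomach estrus 1 the lowest, 124 FPKM, beside a squamous sum of 16701 FPKM. Groups of 3 libraries were too small for a test of single outlying values.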

How the results depend on the processing

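Of 55 member values that were called or were named phase differences of a tissue, 53 kept their direction under every alternative run, and 34 of 43 called values stayed called. Of 57 other values that were not called, 28 changed sign under at least 1 alternative, among them Zfp750 in uterus against ovary, which went from 0.12 to -0.35 without uterus estrus 3. One fit of 90 libraries called 4 of 150 pairs of member and tissue between phases and 16 of 525 pairs of the other epithelial factors, beside 1.14% of all pairs. In that fit the counts were 2 and 13 without stomach estrus 1, 2 and 11 without stomach estrus 3, 2 and 17 without uterus estrus 3, and 2 and 9 without the 8 libraries that stood apart, where Trp63 and Gata3 in stomach reversed to -0.92 and -0.51.

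With a pseudocount of 0.1 FPKM, 1 member was called lower in each of duodenum against the other 11 tissues, ovary against the other 11 tissues, uterus against ovary and stomach against uterus, 5 were called higher in ovary, and 0 had a called phase difference in uterus against ovary. In the diestrus libraries alone 0 members were called higher in ovary and 2 lower in stomach against duodenum. The share of all genes called under these alternatives was not counted, so small counts of members are not results about the members.

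Leaving out 1 replicate of every tissue gave 0 to 1 other epithelial factors called between phases, 1 to 2 members higher in ovary, 0 to 1 lower in stomach against duodenum and in stomach against uterus, and, for the phase difference, 0 to 2 members in stomach against duodenum, 0 to 1 in uterus against ovary and 0 to 3 in stomach against uterus. For the neighbour pairs the diestrus runs compared 5 libraries against 5, and the estrus runs left out the libraries of that number in both phases. In each of these runs 0 of 140 neighbour pairs passed an adjusted p of 0.05 (exact permutation test). With fewer libraries the smallest possible p is larger. Without ovary estrus 3 alone, 0 members were called higher in ovary. The phase difference was called in 1 member in stomach against duodenum without duodenum estrus 1, uterus estrus 3 or BAT estrus 3, and in 1 in stomach against uterus without ovary estrus 3, aorta diestrus 3 or BAT estrus 3. Without stomach estrus 3, 1 member was called lower in stomach against duodenum and 1 in stomach against uterus. Without the 8 libraries together, 1 was called higher in ovary, 1 lower in stomach against duodenum, 3 higher and 1 lower in stomach against uterus, and the phase difference was called in 0 in uterus against ovary and in 2 in stomach against uterus. These leave-out sets were chosen after seeing the data, and the share of all genes called was not counted for any run that left libraries out. The cause of these changes was not tested.

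With the replicate number as a block, 0 members were called between phases, and the block changed no other call count. No source says that a number marks the same mouse. By Spearman's rho 2 of the 30 most alike genes were shared. FPKM hold no depth, so counting error cannot be given.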
